A study of Mus musculus with 191 samples.

Results

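Amygdala (AMY) and prefrontal cortex (PFC) were compared in the control mice of a study of chronic intermittent ethanol vapor. All 24 AMY and 24 PFC arrays of control mice were used, 48 of the 191 samples of the series. They were male C57BL/6J mice of 10 to 12 weeks that had received pyrazole (an inhibitor of alcohol dehydrogenase) with saline, and air in the chambers in place of ethanol vapor. Tissue was taken at 0, 8 or 120 h after the last exposure, with 8 mice per time point, and the same mice gave both regions. AMY was punched at 1.25 mm from frozen sections and held the basolateral and central nuclei together, and PFC was punched at 2.0 mm. Each array carried the RNA of 1 region of 1 mouse and measured 25697 probes as bead intensities. For comparison, AMY and PFC arrays of ethanol-treated mice (24 each) and nucleus accumbens arrays (core and shell together) of the control mice were also read. The treated mice, of the same strain, sex, age and time points, had received pyrazole with ethanol in place of saline, and ethanol vapor in the chambers.

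The amygdala is a cluster of unlike cell groups. Its basolateral part is cortex-like, with glutamatergic principal neurons, whereas its central part is striatum-like, with GABAergic projection neurons that use many neuropeptides. The prefrontal cortex is a layered cortex of glutamatergic pyramidal neurons with scattered GABAergic interneurons, and its surface is covered by the meninges. In bulk punches, fewer cells of a type and less RNA per cell cannot be told apart.

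Of the 25697 probes, 13275 were detected (detection p of 0.05 or lower) on over 80% of the arrays of AMY or PFC, 12591 in AMY, 12832 in PFC and 12148 in both. They stood for 9124 named genes, each read here through its probe of highest mean. The difference AMY minus PFC (log2) passed an adjusted p of 0.05 for 10184 probes (76.7%). Most of these differences were small, with a median size of 0.17 and a median SE of 0.02 over the probes. At least 2-fold differences were found for 185 probes (1.39%), 92 (0.693%) higher and 93 (0.701%) lower in AMY. By gene, 3990 (43.7%) were higher and 3038 (33.3%) lower in AMY, 0.789% were at least 2-fold higher and 0.833% at least 2-fold lower, and the median difference of all genes was 0.02. In 5.36% of the genes every AMY array lay above every PFC array, and in 5.51% every AMY array lay below. Since most genes passed, sizes and array ranges are given with the tests. Intensities were not background-subtracted, which holds down the fold of dim genes. With a background correction (normexp) 650 probes were at least 2-fold different.

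Every array correlated better with the mean of its own region (r from 0.9934 to 0.9984) than with that of the other (0.9684 to 0.977). Median intensities were 94.1 to 108 in AMY and 99.8 to 123 in PFC, and 13386 to 14169 probes were detected per AMY array against 13577 to 14659 per PFC array. The arrays of 3 mice stood apart for single genes. The PFC array of mouse 42 (0 h) had Clic6 at 8.62, against 6.60 to 6.91 on the other 23 PFC arrays. The AMY array of mouse 18 (0 h) had Ptgds at 11.37, against 8.57 to 10.01 on the other 23 AMY arrays. Mice 18 (0 h) and 10 (8 h) had the lowest Hba-a1 in both regions, 8.89 and 8.81 in AMY and 10.15 and 10.61 in PFC. Values without these mice are given beside the results that rest on them.

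Among neuropeptide genes, Gal, Tac1 and Pdyn were in the 12 largest positive differences and Vip in the 12 largest negative ones. Promoters of this list are shown first. Of the 30 measured neuropeptide genes (46 listed), 16 were higher and 14 lower in AMY, and none failed the test. These were 53.3% and 46.7%, against 43.7% and 33.3% of all genes. At least 2-fold differences were found for 7 higher and 2 lower genes. The median difference of the list was 0.25 over all 30 and -0.14 over those detected in both regions. In RefSeq (GRCm38.p6), 26 of the 30 had a promoter of 300 bases, 250 before and 50 after the start of transcription. The cAMP response element, TGACGTCA (which reads the same on both strands), was found in 4 of the 26, Cartpt, Scg2, Sst and Chgb. Over all 32851 mouse promoters of that length 1.79% held it, and 3.56% of the 7440 measured genes with a promoter did. The 4 were printed to show the element, in capitals, together with the peptide genes that differed most in each direction, Gal (the largest positive difference) and Vip (the largest negative one), where these letters were not found in the window. Only these exact letters were searched and marked, so variant forms of the element were not counted. The Vip window holds tgacgtct, which differs from them in its last letter. The 4 genes with the exact letters differed in direction, with Cartpt, Scg2 and Sst higher and Chgb lower in AMY. The windows, on the strand of each gene, were chr13:99900634-99900933 (minus) for Cartpt, chr1:79439977-79440276 (minus) for Scg2, chr16:23890795-23891094 (minus) for Sst, chr2:132781392-132781691 (plus) for Chgb, chr19:3414495-3414794 (minus) for Gal and chr10:5638968-5639267 (plus) for Vip.
Cartpt: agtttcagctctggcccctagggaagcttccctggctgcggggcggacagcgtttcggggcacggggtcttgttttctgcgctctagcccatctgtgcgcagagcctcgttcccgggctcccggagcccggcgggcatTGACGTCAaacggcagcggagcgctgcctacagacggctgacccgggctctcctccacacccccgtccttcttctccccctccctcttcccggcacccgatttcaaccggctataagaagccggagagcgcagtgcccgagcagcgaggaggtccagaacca
Scg2: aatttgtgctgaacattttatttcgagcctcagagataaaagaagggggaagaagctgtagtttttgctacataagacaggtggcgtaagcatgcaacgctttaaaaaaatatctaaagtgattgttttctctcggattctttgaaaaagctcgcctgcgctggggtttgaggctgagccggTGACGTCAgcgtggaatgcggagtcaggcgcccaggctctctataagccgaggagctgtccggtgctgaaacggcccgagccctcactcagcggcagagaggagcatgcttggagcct
Sst: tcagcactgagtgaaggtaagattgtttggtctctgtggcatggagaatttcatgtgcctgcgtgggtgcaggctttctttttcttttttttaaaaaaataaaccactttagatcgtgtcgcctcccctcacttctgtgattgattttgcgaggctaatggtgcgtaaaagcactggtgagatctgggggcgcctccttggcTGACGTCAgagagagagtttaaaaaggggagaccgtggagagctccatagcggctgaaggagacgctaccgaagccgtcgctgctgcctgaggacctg
Chgb: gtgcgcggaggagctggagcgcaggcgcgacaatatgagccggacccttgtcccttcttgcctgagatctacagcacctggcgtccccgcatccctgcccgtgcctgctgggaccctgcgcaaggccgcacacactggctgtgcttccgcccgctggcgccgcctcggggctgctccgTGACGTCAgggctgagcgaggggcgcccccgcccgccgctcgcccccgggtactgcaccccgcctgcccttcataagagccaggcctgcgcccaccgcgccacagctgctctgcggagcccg
Gal: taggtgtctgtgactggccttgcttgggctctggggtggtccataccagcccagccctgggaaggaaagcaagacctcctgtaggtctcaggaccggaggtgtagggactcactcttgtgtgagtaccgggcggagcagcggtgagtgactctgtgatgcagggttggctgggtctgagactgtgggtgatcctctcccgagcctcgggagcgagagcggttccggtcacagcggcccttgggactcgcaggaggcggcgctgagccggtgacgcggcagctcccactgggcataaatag
Vip: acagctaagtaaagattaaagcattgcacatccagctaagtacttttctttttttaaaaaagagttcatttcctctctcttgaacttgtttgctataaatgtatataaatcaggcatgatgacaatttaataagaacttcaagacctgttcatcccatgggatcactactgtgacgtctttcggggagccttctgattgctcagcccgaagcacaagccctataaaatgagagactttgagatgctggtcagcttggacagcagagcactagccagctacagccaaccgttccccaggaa

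Levels are given below as the lowest, the median and the highest log2 normalized intensity of the 24 arrays of a region. Gal, the galanin precursor, had 8.24, 9.19 and 9.54 in AMY against 6.61, 6.91 and 7.66 in PFC. The 2 ranges did not meet, and the difference was 2.08 ± 0.08 (SE), a 4.24-fold higher intensity (adjusted p = 6.4e-29, limma). Tac1, which encodes substance P, had 9.54, 9.99 and 10.42 in AMY against 7.76, 8.08 and 8.48 in PFC, a 3.68-fold higher intensity. Pdyn, the dynorphin precursor, had 10.90, 11.47 and 12.03 in AMY against 9.40, 9.76 and 9.97 in PFC, 3.26-fold higher. For both genes all AMY arrays were above all PFC arrays. Nts, the neurotensin precursor, was detected on all 24 AMY arrays but on only 3 PFC arrays, with 7.96, 8.29 and 8.65 in AMY against 6.52, 6.62 and 6.78 in PFC. Scg2, a granin of dense-core vesicles, had 11.42, 11.75 and 11.93 in AMY against 9.86, 10.20 and 10.92 in PFC (difference 1.52 ± 0.05). Cartpt, the CART peptide precursor, had 8.29, 8.73 and 9.54 in AMY against 7.09, 7.26 and 7.69 in PFC (1.48 ± 0.06). None of these 3 overlapped. Ucn3, a peptide of the corticotropin-releasing factor family, was detected on all 24 AMY arrays and on no PFC array, which gives at least 1.47-fold higher intensity in AMY. Sst, somatostatin, had 12.07, 12.27 and 12.45 in AMY against 11.28, 11.71 and 11.86 in PFC, a smaller difference of 0.60 ± 0.03 with no overlap. Nts, Scg2, Cartpt and Chgb (and Gad1 and Ppp1r1b, given with their lists) were singled out after their values were seen.

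The peptide genes that were lower in AMY included Vip and Cck, which are also on the interneuron list read below. Vip, vasoactive intestinal peptide, had 7.79, 8.03 and 8.46 in AMY against 9.77, 10.04 and 10.49 in PFC, so that its intensity was 4.07-fold higher in PFC. Adcyap1, the PACAP precursor, had 7.17, 7.64 and 8.13 in AMY against 8.35, 8.67 and 8.98 in PFC, a difference of -1.03 ± 0.05. Cck, cholecystokinin, had 10.35, 10.75 and 11.04 in AMY against 11.39, 11.69 and 11.95 in PFC (-0.97 ± 0.04). The ranges of all 3 were apart. Chgb, another granin, overlapped between the regions and differed by -0.27 ± 0.04, and it was lower in AMY in 23 of the 24 mice.

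Of the 19 measured neuropeptide receptors (37 listed), 14 were higher and 5 lower in AMY, with a median difference of 0.31. These were 73.7% and 26.3%, against 43.7% and 33.3% of all genes. Npy2r, a presynaptic neuropeptide Y receptor, was detected on 24 AMY arrays and 11 PFC arrays and was 1.93-fold higher in AMY, whereas Npy1r, the postsynaptic Y1 receptor, differed by -0.59 ± 0.03. Cckbr, the brain cholecystokinin receptor, had 9.73, 10.08 and 10.32 in AMY against 10.97, 11.15 and 11.38 in PFC. Its difference of -1.11 ± 0.03 had the same sign as that of its ligand Cck.

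Outside the peptides, the largest differences in favor of AMY belonged to genes with varied roles. Hap1, which encodes a huntingtin-associated trafficking protein, was the largest of all at 2.19 ± 0.05, with 12.18, 12.49 and 12.80 in AMY against 9.99, 10.24 and 10.74 in PFC. This size rests on 1 probe, and the other Hap1 probes differed by 0.40, 0.82 and 0.52. Ecel1, a neuronal metallopeptidase, had 8.51, 8.79 and 8.99 in AMY against 6.55, 6.62 and 6.78 in PFC, where it was detected on only 2 arrays. Its difference of 2.18 ± 0.02 had the smallest adjusted p of the genes named here (7.1e-53). Igsf1, an immunoglobulin-superfamily membrane protein, was 4.29-fold, Lypd1, a modulator of nicotinic receptors, 3.89-fold, Zcchc12, a transcriptional coactivator, 3.83-fold, and Tmem255a, a membrane protein, 3.35-fold higher in AMY. None of them overlapped between the regions. A pair of further genes was detected on all 24 AMY arrays and on no PFC array. Isl1, a LIM-homeodomain transcription factor of striatal neurons, had 7.88, 8.34 and 8.98 in AMY against 6.49, 6.56 and 6.62 in PFC, at least 3.19-fold higher. Slc10a4, a transporter of synaptic vesicles, had 7.2, 7.86 and 8.63 in AMY against 6.51, 6.56 and 6.67 in PFC, at least 2.27-fold higher. These bounds set the PFC level at the dimmest detected probe of each array where the probe itself was dimmer.

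The largest differences in favor of PFC were spread over genes of several roles. Cpne9, a copine (a calcium-dependent membrane-binding protein), had 7.78, 8.02 and 8.37 in AMY against 9.92, 10.36 and 10.65 in PFC, a difference of -2.35 ± 0.04. Tnnc1, slow troponin C, had 7.30, 7.52 and 7.67 in AMY against 9.08, 9.57 and 10.52 in PFC (-2.13 ± 0.05). Mef2c, a transcription factor of cortical excitatory neurons, had 9.59, 9.92 and 10.43 in AMY against 11.19, 11.81 and 12.39 in PFC (-1.90 ± 0.06). In these 3 genes every AMY array was lower than every PFC array. Stard8, a gene of the cortical projection neuron list, Epop, a Polycomb-associated protein, Stmn1, a microtubule-destabilizing protein, and Krt12, a keratin, were 3.61-, 3.38-, 3.37- and 3.34-fold higher in PFC, again with no overlap. The plot of the 24 largest differences shows how far the arrays of the regions lay apart.

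**Figure D1:**
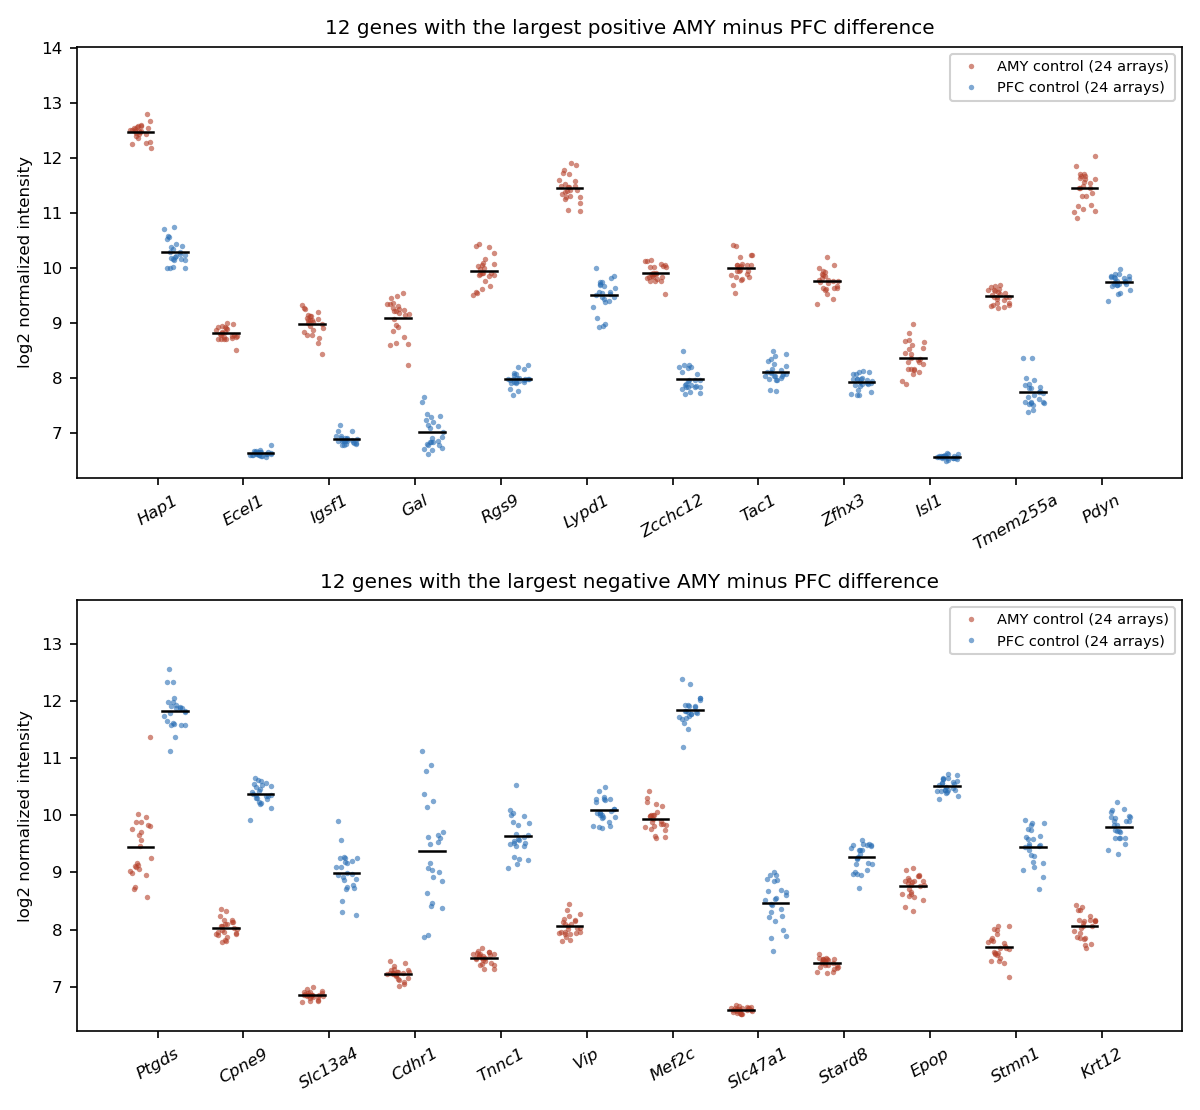
Log2 normalized intensity (vertical axes) of the 12 genes with the largest positive (top) and the 12 with the largest negative (bottom) AMY minus PFC difference, with 1 point per array, AMY left of PFC, 24 control arrays each, and bars at the means. The clouds are apart for every gene but Ptgds, whose highest AMY array (11.37) lies inside the PFC range of 11.12 to 12.56, and Cdhr1 spans 7.87 to 11.12 in PFC.

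Genes were then read by lists of cell types, nuclei and functions, with the counts set against the 43.7% higher and 33.3% lower of all genes. Of the 21 measured genes known from amygdala nuclei (28 listed), 17 were higher and 4 lower in AMY, 11 of them at least 2-fold higher, with a median of 1.29 and a range of -0.40 to 2.18. In 16 of the 21 every AMY array was above every PFC array. The list was chosen with earlier results of these data known, so it is no independent check of the AMY label. With nucleus accumbens of control mice normalized together with both regions, the median difference from PFC was 1.28 in AMY and 1.13 in nucleus accumbens. The AMY mean was the highest for 10 of the 21 genes and lay between PFC below and nucleus accumbens above for 7. Besides Ecel1, Lypd1 and Tac1, the list held Zfhx3, a homeobox transcription factor, with 9.34, 9.76 and 10.19 in AMY against 7.68, 7.93 and 8.13 in PFC, and Lmo3, a LIM-only protein of the amygdala, with 9.96, 10.22 and 10.35 in AMY against 8.26, 8.68 and 8.81 in PFC. Ezr, ezrin, was among the 4 lower genes at -0.32 ± 0.03, with overlapping ranges. Amygdala markers and striatal markers share some genes (Tac1 and Isl1 among them).

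Of the 22 measured cortical projection neuron genes (33 listed), 6 were higher and 15 lower in AMY, 4 of them at least 2-fold lower, with a median of -0.64. Tbr1, a transcription factor of deep-layer cortical neurons, had 7.61, 7.95 and 8.29 in AMY against 8.76, 9.26 and 9.44 in PFC (-1.27 ± 0.04). Otof, otoferlin, and Bcl11b, a transcription factor of corticospinal as well as striatal neurons, went the other way, at 1.00 ± 0.03 and 0.64 ± 0.04. Of the 54 measured regional transcription factor genes (79 listed), 20 were higher and 31 lower in AMY. Tshz3, a zinc finger homeobox factor, had 7.96, 8.15 and 8.31 in AMY against 9.49, 9.69 and 9.85 in PFC, and Nfix, a nuclear factor I gene, 8.96, 9.17 and 9.53 in AMY against 10.30, 10.53 and 10.75 in PFC. Neither overlapped, but another Nfix probe differed by only -0.05.

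Of the 24 measured striatal projection neuron genes (33 listed), 21 were higher and 2 lower in AMY, with a median of 0.40. Rgs9, a regulator of G protein signaling that is abundant in striatum, had 9.50, 9.91 and 10.43 in AMY against 7.68, 7.97 and 8.23 in PFC. Drd1, the D1 dopamine receptor, had 8.2, 8.59 and 9.14 in AMY against 6.99, 7.30 and 7.67 in PFC, and Ppp1r1b, which encodes DARPP-32, 9.38, 10.20 and 10.81 in AMY against 8.35, 8.67 and 9.36 in PFC. All 3 were higher on every AMY array, although other Ppp1r1b probes differed by only 0.18 and 0.44. Rxrg, a retinoid X receptor, and Gng7, a striatal G protein gamma subunit, were 2.91- and 2.41-fold higher in AMY. Another Gng7 probe differed by only 0.25. Foxp1, a striatal and cortical transcription factor, and Scn4b, a sodium channel beta subunit, were lower, at -0.62 ± 0.03 and -0.36 ± 0.10. With the nucleus accumbens (NAC) of control mice normalized together with both regions, Rgs9, Drd1 and Ppp1r1b averaged 9.87, 8.52 and 10.04 in AMY, 7.91, 7.24 and 8.64 in PFC and 12.70, 10.46 and 12.54 in NAC. For 20 of the 24 genes the AMY mean lay between that of PFC below and that of NAC above, as it did for 2676 of the 9124 genes.

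The striatal genes varied between AMY arrays. The mean log2 level of the list ran between 8.35 and 8.95 over AMY arrays, against 7.90 to 8.02 over PFC arrays. Over the 24 AMY arrays Drd1 followed Rgs9 (Pearson r = 0.694, permutation p = 1.5e-04, Spearman rho = 0.71, p = 1.5e-04, and r = 0.599 without the 2 arrays farthest from the median). Clic6, a chloride channel gene of the choroid plexus list, also followed Rgs9 in AMY (r = 0.851, rho = 0.891, r = 0.86 without the 2 farthest, permutation p = 1.0e-05 for both, the smallest that 100000 permutations give). Within the 8 mice of each time point, r was 0.593, 0.792 and 0.716 for Drd1 and 0.823, 0.936 and 0.912 for Clic6 (0, 8 and 120 h). With the 2 relations in PFC given below, 4 were computed, and their Benjamini-Hochberg adjusted p was between 1.3e-05 and 1.5e-04. Since the genes were chosen with these values in view, the p-values describe these arrays. The permutations mixed the time points, so a shift with time that 2 genes share also enters these p-values. The part that the striatal share of a punch had in the differences was not tested.

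Lists of neighboring regions were read in the same way. Of the 7 measured hypothalamic genes (17 listed), 6 were higher and 1 lower, led by Hap1, Gal and Ahi1, the gene of a Hap1-binding ciliary protein (11.83, 12.13 and 12.26 in AMY against 10.44, 10.64 and 10.82 in PFC). Trh, thyrotropin-releasing hormone, differed by -0.46 ± 0.10 with overlapping ranges and was higher in AMY in 6 of 24 mice. Of the 10 measured thalamic genes (16 listed), 5 were higher and 4 lower, with a median of 0.14 that turned to -0.03 in the 120 h mice, and also over the genes detected in both regions. Gbx2, a homeobox gene of the thalamus, was detected on no PFC array and was at least 1.65-fold higher in AMY. With the 3 brain regions normalized together it averaged 7.70 in NAC, 7.36 in AMY and 6.54 in PFC. The AMY mean was the highest of the 3 for 3 of the 10 thalamic genes. Zic1, a zinc finger gene of thalamus and olfactory bulb, differed by -1.05 ± 0.08. The hypothalamic list ranged between 9.33 and 9.68 in AMY and between 8.31 and 8.80 in PFC, and the thalamic list between 8.35 and 8.78 in AMY and between 8.12 and 8.78 in PFC. The part of adjoining tissue in these differences was not tested.

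Slc32a1, the vesicular GABA transporter, had 12.20, 12.45 and 12.69 in AMY against 10.62, 10.94 and 11.34 in PFC, a 2.80-fold higher intensity (adjusted p = 3.1e-34). Gad1, a GABA-synthesizing enzyme, was higher by only 0.39 ± 0.06 with overlap (11.57, 11.86 and 12.16 in AMY against 11.17, 11.37 and 12.09 in PFC). Of the 12 measured GABA genes (25 listed), 7 were higher and 3 lower in AMY. The receptor subunits did not move together. Gabrg1, a gamma subunit gene, was 1.87-fold higher in AMY, and Gabrd, the delta subunit of extrasynaptic receptors, had 7.38, 7.63 and 7.96 in AMY against 8.54, 8.80 and 9.04 in PFC.

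The vesicular glutamate transporters had opposite differences. Slc17a7, VGLUT1 of cortical neurons, had 9.43, 10.01 and 10.57 in AMY against 10.71, 10.93 and 11.17 in PFC (-0.95 ± 0.06). Slc17a6, VGLUT2 of subcortical neurons, had 9.94, 10.47 and 10.99 in AMY against 8.45, 9.06 and 9.67 in PFC (1.38 ± 0.08). Neither overlapped. Of the 18 measured glutamate transporters and receptors (35 listed), 9 were higher and 6 lower, and Grik1, a kainate receptor subunit, was higher by 0.50 ± 0.04.

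Cdhr1, a cadherin-related gene that in mouse brain marks mitral cells of the olfactory bulb, was lower in AMY by -2.14 ± 0.16, with 7.02, 7.24 and 7.45 in AMY against 7.87, 9.34 and 11.12 in PFC. Its spread was in PFC, whose array of mouse 10 (8 h) had both the highest Cdhr1 (11.12) and the highest Slc17a6 (9.67). Over the 24 PFC arrays Slc17a6 followed Cdhr1 (Pearson r = 0.882, Spearman rho = 0.859, permutation p = 1.0e-05 for both, r = 0.849 without the 2 farthest arrays). Within time points r was 0.508, 0.921 and 0.841 at 0, 8 and 120 h. The PFC median of Cdhr1 was 8.44, 9.58 and 9.69 at these times, and that of Slc17a6 was 8.73, 9.15 and 9.31. The part of olfactory tissue in the PFC levels was not tested. Without mouse 10 the differences were -2.06 for Cdhr1 and 1.40 for Slc17a6.

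Genes of the interneuron list differed in direction. Of the 24 measured interneuron genes (37 listed), 11 were higher and 11 lower in AMY. Pvalb, parvalbumin of fast-spiking cells, had 8.68, 9.03 and 9.46 in AMY against 10.11, 10.37 and 10.75 in PFC, which is 2.6-fold higher in PFC. Reln, reelin, had 9.01, 9.36 and 9.85 in AMY against 9.95, 10.36 and 11.13 in PFC, and Id2, a helix-loop-helix inhibitor found in neurogliaform cells, 7.44, 7.86 and 8.13 in AMY against 8.71, 8.94 and 9.22 in PFC. Like Vip, these 3 were lower on every AMY array, whereas Sst and Tac1 were higher on every AMY array. Over the whole list, the AMY arrays were all above PFC for 5 genes and all below for 6. Sst and Tac1 are also on the amygdala list, and Tac1 on the striatal list, so they do not mark cortical interneurons alone.

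Of the 22 measured monoamine and acetylcholine genes (49 listed), 13 were higher and 6 lower in AMY. Ddc, which makes dopamine and serotonin from their precursors, had 8.23, 8.41 and 8.71 in AMY against 6.89, 7.07 and 7.54 in PFC. Htr1d, a serotonin autoreceptor, was detected on 24 AMY and 12 PFC arrays and was 2.15-fold higher in AMY, and Chrm3, a muscarinic receptor, differed by -0.61 ± 0.02. Of the 12 measured stress hormone genes (22 listed), 6 were higher and 4 lower, Ucn3 and Adcyap1 among them. Of the 9 measured endocannabinoid genes (12 listed), 0 were higher and 6 lower. The lowest was Mgll, which degrades the endocannabinoid 2-AG, with 9.02, 9.26 and 9.56 in AMY against 10.01, 10.37 and 10.64 in PFC.

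Potassium channel genes were more often lower than higher. Of the 42 measured potassium channel genes (62 listed), 11 were higher and 27 lower in AMY, with a median of -0.13. Kcnmb4, an auxiliary subunit of BK channels, had 8.60, 8.77 and 8.90 in AMY against 9.69, 9.96 and 10.23 in PFC, and Kcnv1, a silent subunit, 7.56, 7.81 and 7.98 in AMY against 8.61, 8.85 and 9.10 in PFC. The highest of the list in AMY, Kcnip2, a Kv4-interacting protein, reached only 0.28 ± 0.03. Of the 22 measured sodium and calcium channel genes (33 listed), 11 were higher and 9 lower, between Ryr3, a ryanodine receptor, at 0.72 ± 0.03 and Cacna2d1, a calcium channel subunit, at -0.99 ± 0.07. Of the 29 measured calcium-binding and kinase genes (36 listed), 8 were higher and 18 lower. Hpcal1, a neuronal calcium sensor, was 2.97-fold higher in AMY, and Camkk2, a kinase of CaM kinases, and Camk2n1, an inhibitor of CaMKII, were 2.13- and 1.98-fold higher in PFC. Of the 26 measured G protein regulators (31 listed), 11 were higher and 8 lower, and Rgs4, a regulator abundant in cortex, differed by -0.82 ± 0.05.

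Activity-regulated genes, whose transcription follows neuronal firing, were mostly lower in AMY. Of the 22 measured (30 listed), 4 were higher and 16 lower, with a median of -0.37. Nrn1, neuritin, had 10.10, 10.47 and 10.94 in AMY against 11.48, 11.81 and 11.98 in PFC with no overlap (-1.27 ± 0.05). Arc, a cytoskeletal immediate-early gene, had 7.72, 8.08 and 8.62 in AMY against 7.98, 9.01 and 9.88 in PFC and overlapped, although it was lower in AMY in all 24 mice. Rgs2, a regulator of G protein signaling, was the highest of the list at 0.35 ± 0.02. Of the 18 measured clock genes (21 listed), 1 was higher and 13 lower, and Bhlhe40, a repressor of the clock that is also induced by activity, was 2.36-fold higher in PFC.

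Of the 61 measured cadherin and guidance genes (92 listed), 27 were higher and 21 lower in AMY, shares close to those of all genes. They lay between Pcdh20, a protocadherin, at 0.94 ± 0.05 and Sema7a, a membrane-anchored semaphorin, at -0.96 ± 0.03. The matrix genes (25 measured of 38) included 11 higher and 10 lower. Sparc, a matricellular protein, was 2.57-fold higher in AMY, while its paralog Sparcl1 was 1.94-fold higher in PFC, and neither overlapped. Of 10 measured retinoid genes (18 listed), 5 were higher and 3 lower, and the lowest was Aldh1a1, a retinaldehyde dehydrogenase, at -0.36 ± 0.03.

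**Figure D2:**
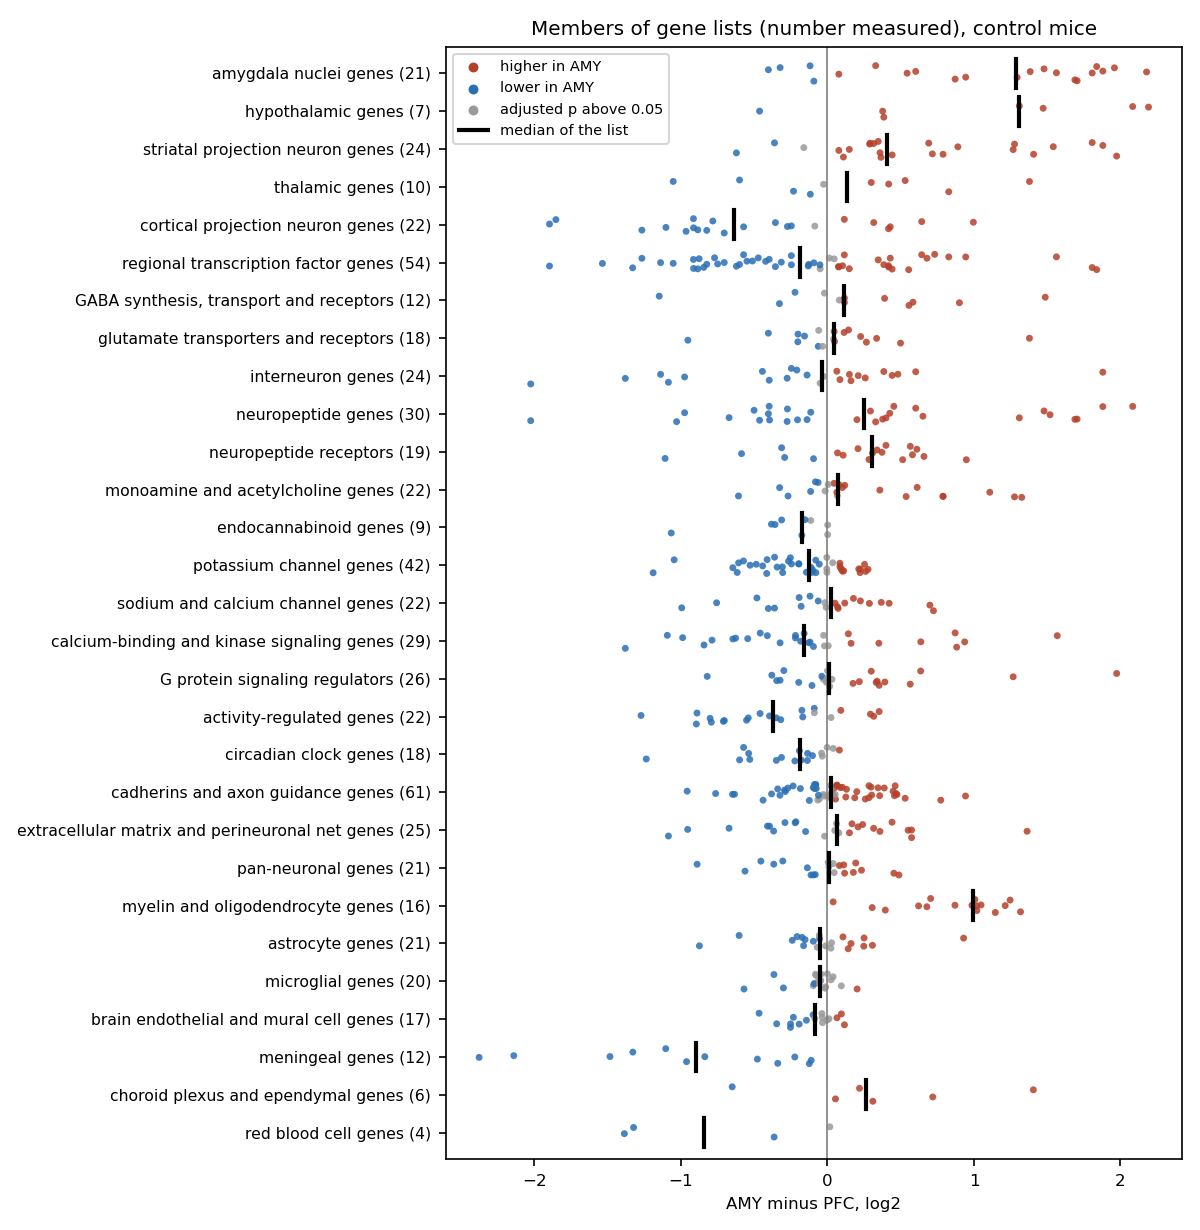
AMY minus PFC difference (log2, horizontal axis) of each measured member of 29 gene lists, with 1 point per gene, red for higher and blue for lower in AMY at an adjusted p of 0.05, gray for the rest, and a black bar at the median of each list. The medians run between 1.31 for hypothalamic genes and -0.90 for meningeal genes, and 15 of 20 microglial genes are gray.

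Glial and vascular markers did not share a direction. All 16 measured myelin genes (25 listed) were higher in AMY, 8 of them at least 2-fold, with a median of 1.00. Mag, myelin-associated glycoprotein, had 10.42, 10.67 and 11.03 in AMY against 9.10, 9.27 and 9.75 in PFC, and Mobp, another myelin protein, 8.83, 9.36 and 9.96 in AMY against 7.86, 8.10 and 8.51 in PFC. Trf, transferrin of oligodendrocytes, was 2.32-fold higher in AMY. The mean level of the list was 9.36 to 9.79 on AMY arrays, against 8.61 to 8.81 on PFC arrays. Of the 7 precursor genes (12 listed), 5 were higher and 2 lower, with a median of 0.18.

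Of the 21 measured astrocyte genes (26 listed), 7 were higher and 9 lower, with a median of -0.05. Agt, angiotensinogen, a gene of subcortical astrocytes, was detected on 24 AMY and 9 PFC arrays and was 1.90-fold higher in AMY. Aqp4, the water channel, and Glul, glutamine synthetase, differed by -0.87 ± 0.06 and -0.60 ± 0.04. The Glul probe was dim, with 6.69, 6.83 and 6.95 in AMY against 7.08, 7.43 and 7.72 in PFC. It was detected on 22 AMY and 24 PFC arrays. Among the 20 measured microglial genes (24 listed), 1 was higher and 4 lower, and 15 did not pass. With the mouse as a fixed block 2 were higher and 9 lower, and with array weights 1 and 8, so this count depends on the fit. The largest difference, of P2ry12, was -0.57 ± 0.04. Of 17 endothelial and mural genes (26 listed), 3 were higher and 8 lower, the lowest being Flt1, a VEGF receptor, at -0.47 ± 0.05. Pan-neuronal genes were even, with 8 higher and 9 lower of 21 (24 listed), with Syt1, a synaptic vesicle calcium sensor, at -0.89 ± 0.04 and Uchl1, a neuronal deubiquitinase, at 0.45 ± 0.03.

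All 12 measured meningeal genes (16 listed) were lower in AMY. Ptgds, the prostaglandin D synthase that leptomeninges secrete, had 8.57, 9.36 and 11.37 in AMY against 11.12, 11.84 and 12.56 in PFC (-2.38 ± 0.12, and -2.46 without mouse 18). Slc13a4, a sulfate transporter, had 6.74, 6.85 and 7.00 in AMY against 8.26, 8.98 and 9.91 in PFC. Igf2, an insulin-like growth factor of the meninges, had 9.0, 9.27 and 9.59 in AMY against 10.24, 10.69 and 11.46 in PFC. Outside that list, Slc47a1, an organic cation transporter, was detected on no AMY array and on all 24 PFC arrays, with 6.53, 6.59 and 6.68 in AMY against 7.62, 8.53 and 9.01 in PFC, at least 3.36-fold higher in PFC. The mean meningeal level was 7.36 to 7.56 on AMY arrays and 8.04 to 8.83 on PFC arrays, and Ptgds followed Slc13a4 over the 24 PFC arrays (r = 0.783, rho = 0.803, permutation p = 2.0e-05 and 1.0e-05, r = 0.853 without the 2 farthest, and 0.534, 0.912 and 0.889 at 0, 8 and 120 h). The part of meninges in the other differences was not tested.

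Of the 4 measured red cell genes (9 listed), 3 were lower in AMY and 1 did not pass. Hba-a1, an alpha globin, had 8.81, 10.54 and 10.89 in AMY against 10.15, 11.87 and 12.57 in PFC and overlapped, but was lower in AMY in all 24 mice. Its difference was -1.39 ± 0.14, and -1.39 without mouse 18 and -1.37 without mouse 10. Hbb-bt, a beta globin, differed by -1.32 ± 0.09. The globin genes are near copies, so their probes may not tell them apart. Of the 6 measured choroid plexus and ependymal genes (16 listed), 5 were higher and 1 lower. Clic6 differed by 1.41 ± 0.09 and Sostdc1, a secreted BMP and Wnt antagonist, by 0.72 ± 0.04, and without mouse 42 the values were 1.5 and 0.76. The ranges overlapped for every gene of the list. Clic6, the only member at least 2-fold different, followed the striatal gene Rgs9 in AMY (above). With the 3 brain regions normalized together it averaged 9.05 in NAC, 8.15 in AMY and 6.76 in PFC. The part of choroid plexus in its difference was not tested. Aqp1, a water channel of choroid plexus and vessels, was detected on no AMY array and on 23 PFC arrays, at least 1.43-fold higher in PFC.

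**Figure D3:**
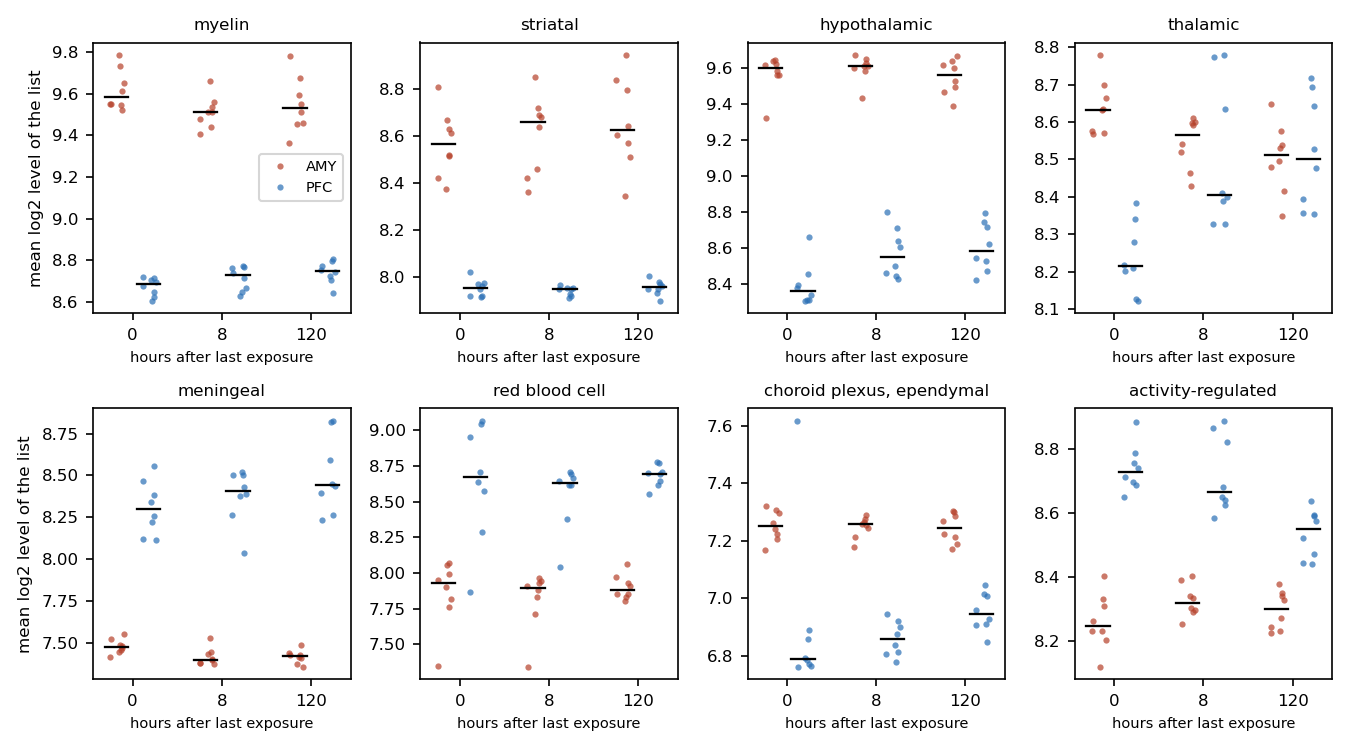
Mean log2 level of the measured members of 8 gene lists (vertical axes) on each control array at 0, 8 and 120 h after the last exposure (horizontal axes), AMY (red) left of PFC (blue), 8 mice each, bars at medians. Meningeal means lie between 7.36 and 7.56 in AMY and between 8.04 and 8.83 in PFC, and 1 PFC array (mouse 42, 0 h) lies above all AMY arrays for choroid plexus genes.

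The regional difference was next compared between time points. All 185 probes with a 2-fold difference kept 1 sign at 0, 8 and 120 h, and of the 10184 probes that passed, 9588 did. The size changed with time (region by time point interaction, adjusted p of 0.05 or lower) for 1796 probes (13.5%), 52 of them among the 185. By gene this was 14.2%. With each array scaled to a common median in place of quantile normalization, 4774 probes had an interaction.

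Hpcal4, a neuronal calcium sensor, had the smallest interaction p, with differences of -0.18, 0.25 and 0.36 at 0, 8 and 120 h (SE 0.04, adjusted p = 1.2e-07). Its AMY median was 11.65, 11.96 and 11.94, against 11.88, 11.72 and 11.58 in PFC, so that the order of the regions changed after 0 h. Ephx4, an epoxide hydrolase family gene, differed by -1.37, -1.07 and -0.83, and kept its direction. The uncharacterized gene 2410002F23Rik differed by 0.63, 0.55 and 0.18. Enc1, a kelch protein of cortical neurons, differed by -0.58, -0.16 and 0.14, and Dpf1, a subunit of the neuronal BAF complex, by -0.02, 0.04 and -0.31. Within larger differences, Slc17a7 differed by -1.28, -0.82 and -0.75, and Mag by 1.54, 1.29 and 1.12. Arc differed by -1.07, -1.06 and -0.54, with a PFC median of 9.16, 9.16 and 8.47.

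Marker lists of other tissues were set beside these values. The PFC median of the thalamic list was 8.21, 8.41 and 8.50 at 0, 8 and 120 h, that of the meningeal list 8.30, 8.41 and 8.45, and Cdhr1 differed between the regions by -1.31, -2.64 and -2.47. Their part in the interactions was not tested, and time after exposure and the dissection of the mice of a time point cannot be told apart.

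**Figure D4:**
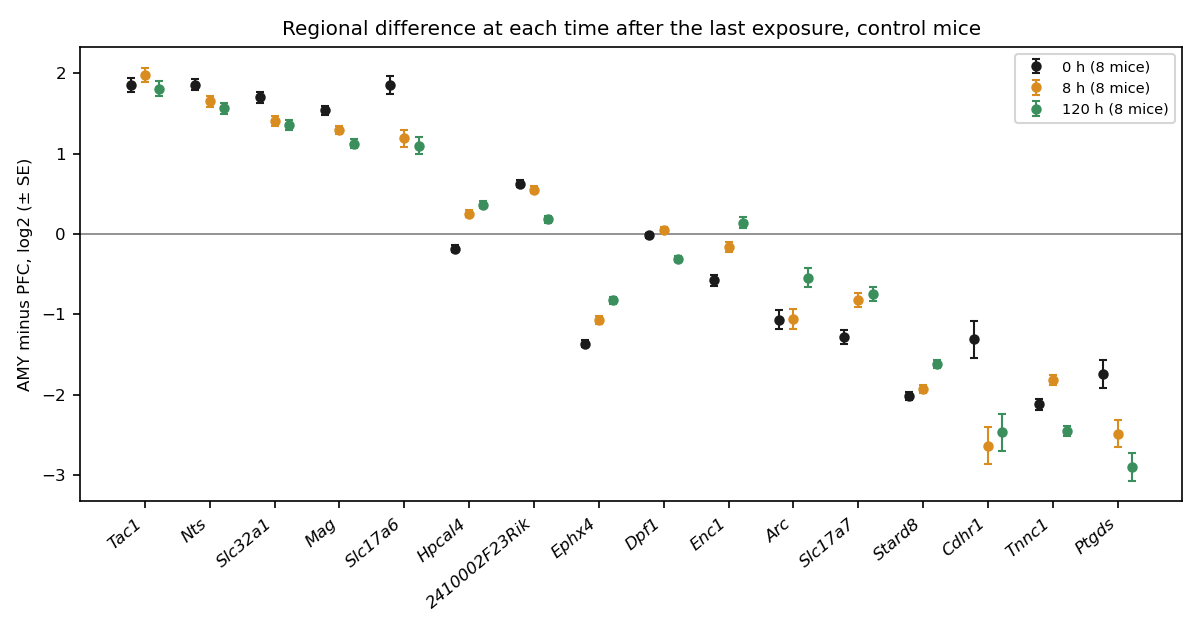
AMY minus PFC difference (log2, vertical axis) at 0, 8 and 120 h for 16 genes (horizontal axis), points with bars of 1 SE, 8 mice per time point. Tac1 lies at 1.85, 1.98 and 1.81, Hpcal4 and Enc1 cross 0, and Cdhr1 is smaller in size at 0 h (-1.31) than at 8 h (-2.64).

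The same regional difference was fitted in the 24 AMY and 24 PFC arrays of the ethanol vapor-treated mice, which share no animal with the controls but share the punches, kit and array type. Of the 10184 probes that passed in controls, 10125 (99.4%) had the same sign in treated mice, against 93.6% of all probes. Among those that passed in controls, 9231 (90.6%) also passed in treated mice with the same sign, while 1 passed with the opposite sign. Of the probes that had not passed in controls, 21.3% passed in treated mice. All 185 probes with a 2-fold difference in controls passed with the same sign, and 171 were again at least 2-fold. Hap1 differed by 2.15 in treated mice against 2.19 in control mice, Vip by -1.99 against -2.02, and Ptgds by -1.94 against -2.38.

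**Figure D5:**
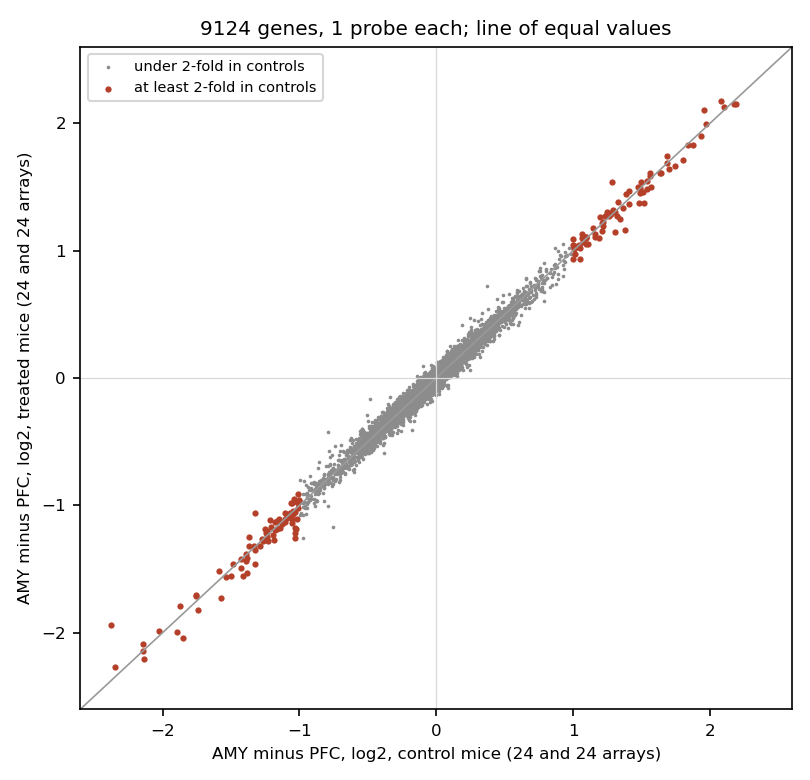
AMY minus PFC difference (log2) of 9124 genes in treated mice (vertical axis) against control mice (horizontal axis), 24 AMY and 24 PFC arrays of each, red for genes at least 2-fold different in controls, with the line of equal values. Points lie along the line, and the median distance between the 2 values was 0.02 over the probes.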

How the data were processed

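Control AMY and PFC arrays (24 each) were MouseRef-8 bead arrays. The authors deposited raw probe intensity values with a detection p-value, and separately processed log2 values made with lumi. Intensities were log2-transformed and quantile-normalized over the 48 arrays, and probes detected (p of 0.05 or lower) on over 80% of arrays of either region were kept. limma 3.58.1 in R 4.3.3 fitted region with time point as covariate and the mouse as a random block (duplicateCorrelation, statmod 1.5.0), with Benjamini-Hochberg adjustment over 13275 probes. The interaction was an F test in a separate fit, with a mean for each region and time point and the mouse again as a random block. It tested the regional difference at 8 h and 120 h against that at 0 h. The script was tested on simulated data.

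Numbers in the column names recur in both regions of a time point and treatment and were taken as the mouse, which the sources used here do not state outright; counts of mice rest on this. Deviations of the 2 arrays of a mouse correlated with a median r of 0.109 (-0.153 to 0.508, 12 of 24 pairs above 0.1), and the block correlation was 0.0269. By time point r ran from 0.0796 to 0.508 at 0 h, -0.0712 to 0.218 at 8 h and -0.153 to 0.214 at 120 h. The same-numbered PFC array was the best match of the AMY array in 9 of 24 pairs, so the pairing is least certain at 8 and 120 h. The array number limits the precision. The chip of each array is not given in the sources used here, so a chip effect was not tested.

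Probes were named from the platform annotation, with symbols updated by gene ID to RefSeq GRCm38.p6: 12446 probes had 1 symbol and 829 had none or several. Of 2390 genes with several probes, 281 had called probes in opposite directions, none of them among the genes named as results. For some named genes other probes gave smaller differences, as for Hap1, Nfix, Gng7 and Ppp1r1b above, Igsf1 (0.43 and 2.02) and Id2 (-0.39). Genes eligible to be named were the 12 largest differences each way, the 3 highest and 3 lowest members of each list with its defining genes, the 5 smallest interaction p-values, and 3 genes not detected in 1 region. This rule gave 187 genes, of which the text names 100, picked after their values were seen; another 6 were named outside it (Nts, Scg2, Cartpt, Chgb, Gad1 and Ppp1r1b). Members and lists were chosen with earlier results of these data known. The deposited log2 values served as an alternative only, since each region had been normalized on its own. The liver arrays were not used.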

Additional observations from a re-analysis of the deposited data

Results flagged for a closer look

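Within the 8 mice of each time point, 17 of 318 tests of the difference between the 2 arrays of a mouse (106 genes at 3 times, 5.35%) had 1 mouse far from the other 7, about as many as the 1 in 20 that chance gives. Mouse 42 at 0 h had Clic6 at -0.65 (others 1.36 to 2.19) and Sostdc1 at -0.18 (others 0.65 to 0.95). Mouse 18 at 0 h had Ptgds at -0.43 (others -2.34 to -1.48), Nts at 1.30 (others 1.76 to 2.03) and Ecel1 at 1.88 (others 2.14 to 2.33). The other 12 differences came from 10 mice, 26 for Adcyap1 (-0.57) and Sparcl1 (-0.45) and 50 for Aldh1a1 (-0.55) at 0 h, 60 for Slc13a4 (-1.45), 52 for Cartpt (2.24), 36 for Slc17a7 (-1.38), 28 for Id2 (-1.48), 44 for Mgll (-1.43) and 68 for Npy2r (1.24) and Kcnip2 (-0.0697) at 8 h, and 16 for Ddc (1.13) and 8 for Sema7a (-0.94) at 120 h. Each is the AMY minus PFC difference (log2) of that mouse.

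The regional difference changed with time for 31 of the 106 named genes (adjusted p of the interaction, limma). Besides Hpcal4 (1.19e-07), Ephx4 (1.47e-06), 2410002F23Rik (1.04e-05), Enc1 (1.07e-05) and Dpf1 (1.42e-05), these were Tnnc1 (4.18e-05), Reln (0.000132), Stard8 (0.000308), Aqp1 (0.00056), Mag (0.000655), Slc17a6 (0.000849) and Lmo3 (0.000949). Those of larger p were Epop (0.00138), Slc17a7 (0.0024), Ptgds (0.00287), Cdhr1 (0.00686), Lypd1 (0.00863), Sparc (0.0107), Agt (0.0113), Slc32a1 (0.0118), Zic1 (0.0147), Ucn3 (0.0157), Nrn1 (0.0174), Tbr1 (0.0206), Bhlhe40 (0.021), Ecel1 (0.0253), Scg2 (0.0268), Chgb (0.0345), Arc (0.0367), Trh (0.0423) and Syt1 (0.0426). Of all genes 14.2% had such an interaction. Hpcal4, Ephx4, 2410002F23Rik, Enc1 and Dpf1 were named for their small interaction p, and the other named genes were picked after their values were seen. The count among named genes can therefore not be set against the share of all genes.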

How the results depend on the processing

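The count of probes that differed, 10184, was 10143 with no replicate block and 10161 with the replicate block as a fixed effect, so the pairing moved no such total by more than 1.5 times (among lists, the microglial genes had 2 higher and 9 lower with the fixed replicate block, against 1 and 4 with the random one), and the region by time point interaction, of 1796 probes, had 1355 and 1653. With the authors' processed values, which held 7739 of the probes, 6301 differed and 69 were at least 2-fold different, where 185 had been. With normexp background correction 650 probes were at least 2-fold different, and with median scaling 4774 had an interaction; the cause was not tested. Median scaling moved the median difference of all probes to 0.04 only. Leaving out both arrays of mouse 18, 42 or 10, chosen after seeing the data, gave 10152, 10101 and 10138 probes. The other alternatives (detection filters, array weights, single time points and treated mice) left the first 2 counts within 1.5 times. Of 106 named genes, 100 kept their sign and passed under every alternative that measured them (67 with the authors' values). The sign turned for Hpcal4 in 0 h mice (-0.18), Enc1 in 120 h mice (0.14) and Dpf1 in 8 h mice (0.0448). Scn4b, Trh and Gad1 lost the call in mice of 1 time point. Single time points have 8 mice, and dim probes near the background have compressed folds. Isl1 had a difference of 1.81, against 3.83 after background correction.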
